A study of Mus musculus with 2 samples.

Results

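Interferons are secreted antiviral signals, and their response genes were compared between 1 Mettl14 d/d and 1 Mettl14 f/f mouse uterus library of gestational day 4, when the mouse uterus becomes receptive to embryos. The genes were taken by their symbols: interferons, their receptors, the Irf and Stat factors, RNA and DNA sensors, and the families that interferon induces. The symbol patterns matched 118 genes, of which Ifi30, Eif2ak2 and the pseudogenes Ifna-ps1, Ifi203-ps and Gbp2-ps were left out, leaving 113 of the 55363 genes in the files. The d/d library came from whole uterus of mice with the d/d genotype at Mettl14 and the f/f library from whole uterus of f/f mice, and in common notation d and f stand for deleted and floxed alleles. Both groups were females 6 to 8 weeks old, mated with fertile males and killed on gestational day 4, counting the plug day as day 1. The labels name neither the promoter that drove the deletion, the cells in which it occurred, the mouse strain, nor whether a library came from 1 animal or a pool. Mettl14 encodes a subunit of the enzyme that writes N6-methyladenosine (m6A) on RNA, and it was 3.21 FPKM in d/d and 13.6 FPKM in f/f.

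Interferons of type I (the alpha family, beta, epsilon and others), type II (gamma) and type III (lambda) bind separate receptors whose Jak kinases phosphorylate Stat proteins. Complexes that hold Stat2 and Irf9 bind the interferon-stimulated response element (ISRE), while other Stat pairs bind the gamma-activated site (GAS), and these elements switch on antiviral genes. In the mouse uterus interferon epsilon is made by the epithelium without infection and varies with ovarian hormones, and interferon gamma from uterine natural killer cells acts on the vessels of the decidua. In human cells m6A on the interferon beta transcript is known to shorten the life of that transcript.

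All values are FPKM, which are fragments per kilobase of a gene's model relative to all fragments counted in the library. The unit is meant to let levels be compared between genes, which is less certain for families of near copies. Each genotype is represented by 1 library, which gives no replicate error and allows no test, and every difference below is one between these libraries. A gene was counted as measured when it reached 1 FPKM in d/d, in f/f or in both, and as higher or lower when the log2 ratio of (FPKM + 1), d/d over f/f, was at least 1 in size, a 2-fold difference on that scale. Fold values given for single genes are ratios of FPKM itself. The libraries held about 20700000 fragments in d/d and 17800000 in f/f, as estimated from the steps between low values, so that 1 FPKM over a transcript of 2000 nt stands for about 41.4 fragments in d/d and 35.6 in f/f. Markers of several cell types differed between the libraries. Higher by 2-fold or more in d/d were 8 of 9 epithelial markers, and lower were 10 of 11 natural killer cell markers, the exception being Itga2, which was higher. Macrophage and monocyte markers were higher for 5 of 12 and lower for none, and the T cell list had 4 higher and 1 lower of 7 measured. Lower for 5 of 10 were endometrial stroma markers, for 3 of 7 smooth muscle markers and for 4 of 9 endothelial markers, and none of these lists held a higher one. In bulk tissue, fewer cells of a type and less RNA per cell cannot be told apart.

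With the filter used here, the interferon genes as a group differed about as often as other measured genes did. Of the 113 genes 80 were measured, and of the 80, 9 were higher in d/d by 2-fold or more, 7 were lower by as much and 64 were neither. The higher genes made up 11.2% of the measured members beside 10.2% of the 16263 measured genes, and the lower ones 8.75% beside 8.28%. Together 20% of the members passed the 2-fold line, near the background of 18.4%. Among genes at 1 FPKM or more in both libraries, 19.2% of 78 members passed, beside 13.7% of 14370 genes. With a pseudocount of 5 FPKM in place of 1, 5 members were higher and 3 lower, and Ifne, Ifngr2, Ifit1bl1, Mx1, Gbp2, Gbp5, Gbp7 and Iigp1 no longer passed. Rtp4 no longer passed with upper-quartile scaling. The members' median log2 ratio was 0.04, with quartiles of -0.51 and 0.48, against a median of -0.01 and quartiles of -0.41 and 0.41 over all measured genes. All members' FPKM summed to 5740 in d/d and to 6077 in f/f, which is 0.447% of the d/d total and 0.474% of the f/f total. Of the 80 measured genes 78 reached 1 FPKM in both libraries, Ifne passed through d/d alone and Ifng through f/f alone. Another 33 genes stayed below 1 FPKM in both, and 22 of these were listed at 0 in both.

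**Figure D1:**
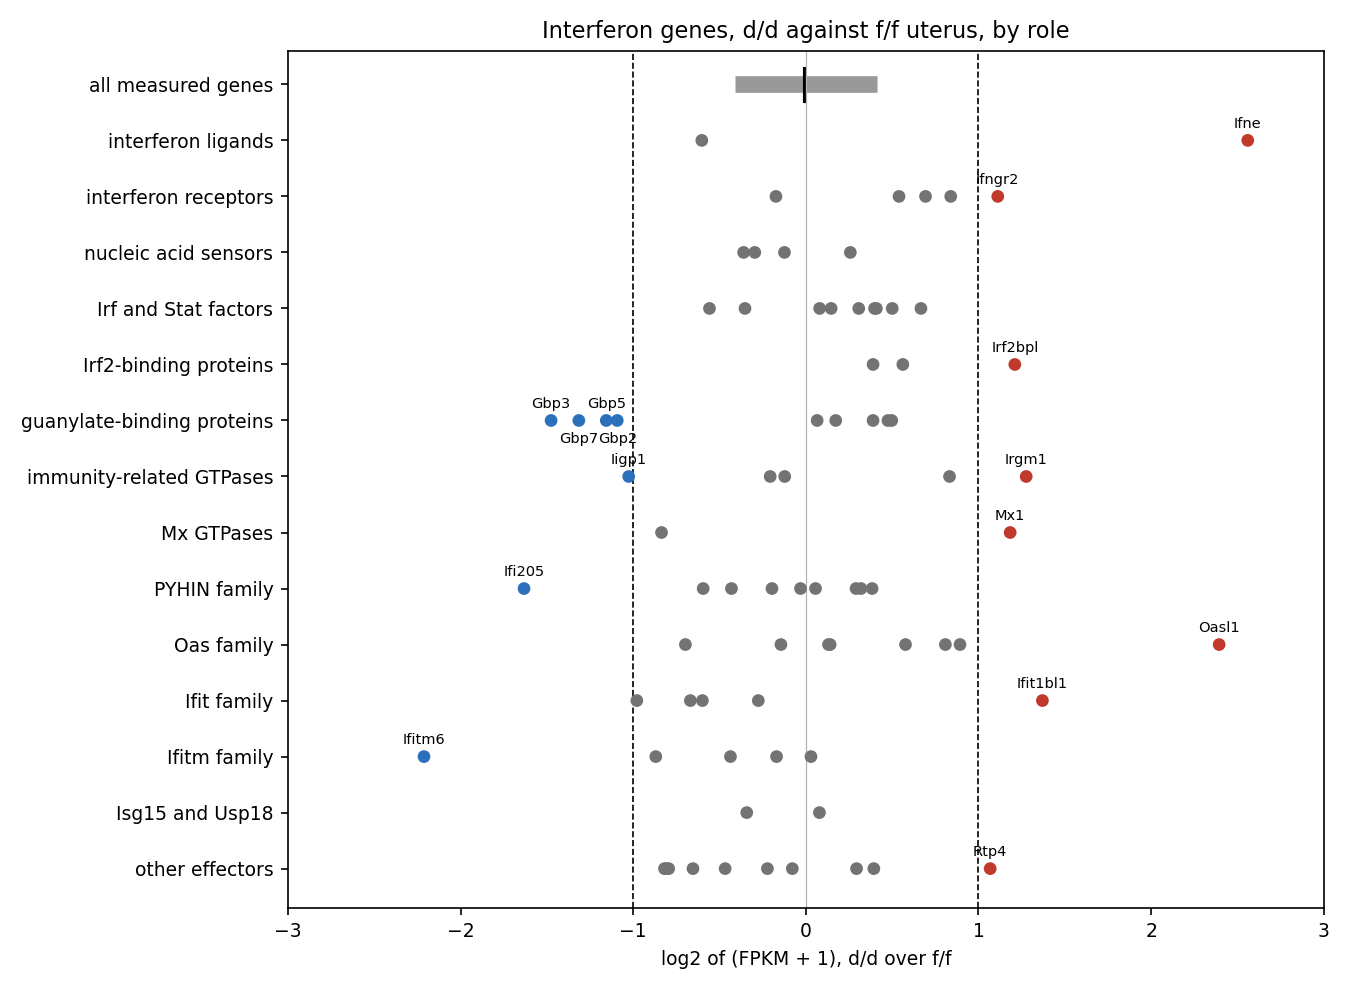
The horizontal axis gives the log2 ratio of (FPKM + 1), d/d over f/f, for 78 of the 80 measured genes, 1 point a gene in the row of its role; red points are higher in d/d by 2-fold or more, blue points at least 2-fold lower, and dashed lines mark 2-fold. The bar in the upper row spans the quartiles of all 16263 measured genes (-0.41 to 0.41) with their median as a tick. The 4 blue guanylate-binding proteins stand apart from the other 5 of their row, which lie between 0.07 and 0.50.

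Among the ligands, interferon epsilon was seen in d/d alone. Ifne (ENSMUSG00000045364, chromosome 4, 88879538 to 88880201, minus strand, GRCm38) was 4.90 FPKM in d/d and listed at 0 in f/f. That level corresponds to about 67 fragments over its single annotated transcript of 664 nt. The epithelial markers were higher in the same library, summing to 2061 FPKM in d/d and 264 FPKM in f/f with none at 0, led by Krt19 at 348 FPKM in d/d and 4.87 in f/f. Their part in the Ifne difference was not tested. Interferon gamma, Ifng, was 0.711 FPKM in d/d and 1.60 FPKM in f/f and did not pass the 2-fold line. Over the longer of its 2 annotated transcripts (378 and 1208 nt) these are about 18 fragments in d/d and 34 in f/f, and fewer over the shorter. The natural killer cell markers summed to 31.8 FPKM in d/d and 303 FPKM in f/f with none at 0 in either library. Itga2, the marker that was higher in d/d, supplied 18.3 FPKM of the d/d sum and 3.46 of the f/f sum. The part of these markers in the Ifng values was not tested. The other ligands were near or at 0. Ifnb1, Ifnk, Ifnl2, Ifnl3, Ifnab and all 13 Ifna genes of the files were listed at 0 in both libraries, and Ifnz was 0.0197 FPKM in d/d and 0.173 in f/f. The antisense RNA Ifngas1 was also listed at 0 in both.

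Of the 5 receptor genes 4 had ratios above 0. Ifngr2, the signal-transducing chain of the interferon gamma receptor, was 46.0 FPKM in d/d and 20.7 FPKM in f/f, a 2.22-fold higher level, and was the single receptor gene past the 2-fold line. Its ligand-binding partner Ifngr1 was 73.0 FPKM in d/d and 40.4 in f/f, a log2 ratio of 0.84. For the type I receptor, the chain Ifnar1 was 47.4 FPKM in d/d and 32.3 in f/f, and Ifnar2 was 44.9 in d/d and 50.7 in f/f, the single receptor gene with a ratio below 0. Ifnlr1, the lambda-specific chain found mainly on epithelia, was 3.84 FPKM in d/d and 1.99 in f/f. The chain it pairs with, Il10rb, was 38.5 FPKM in d/d and 23.0 in f/f. Ifnar2, Ifnar1 and Ifngr2 lie in 1 stretch of chromosome 16, from 91372783 to 91565623.

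Below the receptors, the kinase Jak1 differed most. Jak1, which binds all 3 kinds of interferon receptor, was 95.7 FPKM in d/d and 273 FPKM in f/f, a 2.86-fold lower level. Of the 11 genes listed for Jak-Stat signalling and its inhibitors it was the single gene past the 2-fold line (9.09%, beside 18.4% of all measured genes), and the median of the list was -0.24. The partner kinases Jak2 and Tyk2 had log2 ratios of 0.53 and 0.07, and the feedback inhibitors Socs1 and Socs3 had 0.50 and -0.41.

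The transcription factors described here stayed within 2-fold. Stat2 was 22.7 FPKM in d/d and 21.5 in f/f, and Irf9 was 36.7 in d/d and 47.1 in f/f. Their log2 ratios were 0.08 and -0.35. Irf7, the factor that amplifies type I interferon production and is itself induced by it, was 57.5 FPKM in d/d and 35.8 in f/f. Irf1, which responds to interferon gamma, was 48.8 FPKM in d/d and 34.2 in f/f. Irf2, its counterpart at shared sites, was 53.3 in d/d and 48.1 in f/f.

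Other Irf factors serve particular cell types. Irf8, of the myeloid and dendritic lineages, was 14.0 FPKM in d/d and 21.1 in f/f. Macrophage and monocyte markers summed to 2038 FPKM in d/d and 948 in f/f with none at 0, and their part in the Irf8 values was not tested. Irf4 of lymphocytes was 1.86 FPKM in d/d and 1.17 in f/f, and Irf5 was 10.1 in d/d and 7.35 in f/f. Irf3, which acts straight after viral sensing, was 52.8 in d/d and 42.5 in f/f. The symbol pattern also took in 3 Irf2-binding proteins, which are named as corepressors of Irf2 or for their likeness to them and are not interferon-induced genes. Of these Irf2bpl was 46.0 FPKM in d/d and 19.3 in f/f, 2.38-fold higher, while Irf2bp1 was 30.9 in d/d and 23.4 in f/f and Irf2bp2 was 26.1 in d/d and 17.4 in f/f.

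**Figure D2:**
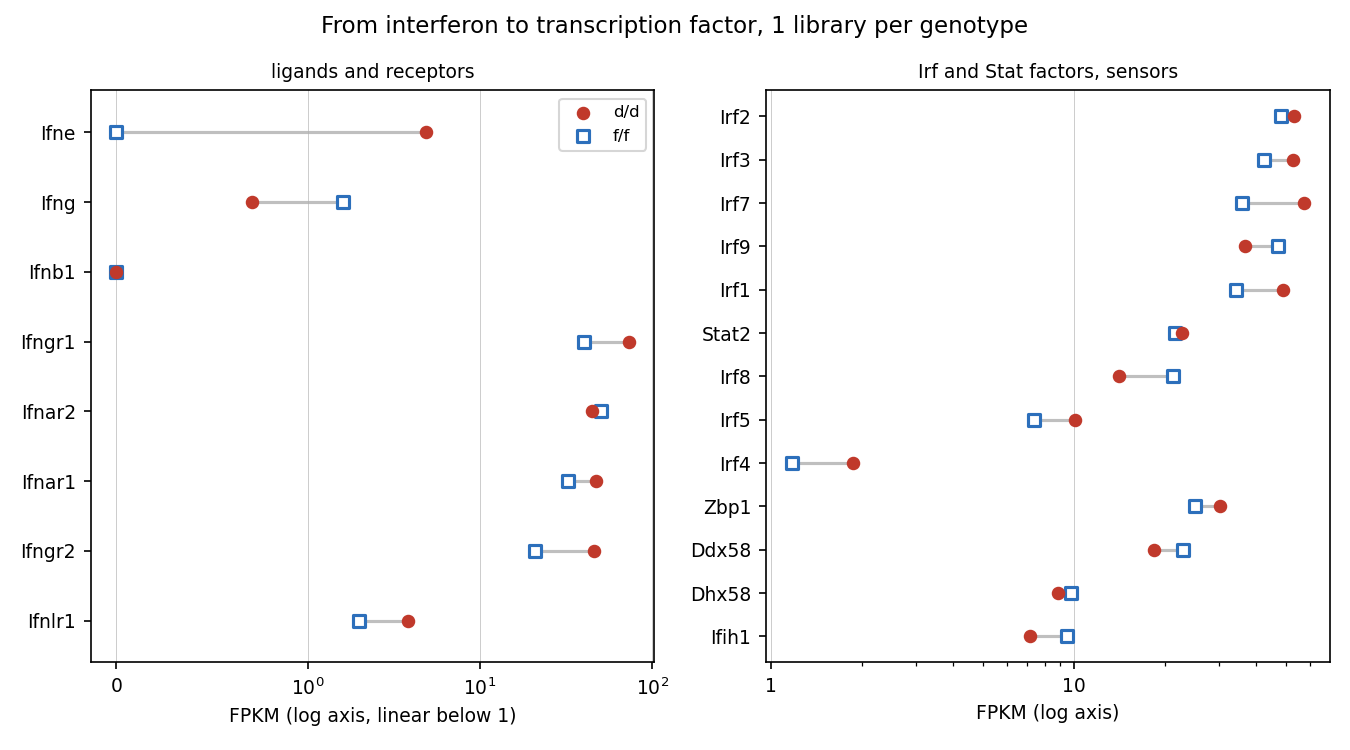
Each row gives 1 gene's FPKM in the d/d library (red circle) and in the f/f library (open blue square) on a log axis, linear below 1 FPKM in the panel of ligands and receptors. Ifne stands at 4.90 FPKM in d/d and at 0 in f/f and Ifnb1 at 0 in both, while Irf7 is 57.5 FPKM in d/d and 35.8 in f/f.

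None of the 4 nucleic acid sensors of the set passed the 2-fold line. Ddx58 (RIG-I) was 18.4 FPKM in d/d and 22.9 in f/f, Ifih1 (MDA5) 7.14 in d/d and 9.45 in f/f, and their regulator Dhx58 (LGP2) 8.89 in d/d and 9.77 in f/f. These detect viral RNA in the cytosol. Zbp1, which binds Z-form nucleic acids, was 30.2 FPKM in d/d and 25.1 in f/f. A separate list covered other sensors and adaptors, and 13 of its 15 measured genes had ratios above 0. Among the 15 measured genes 4 were higher by 2-fold or more and none was lower (26.7%, beside 18.4% of all measured genes), with a median of 0.82. The DNA sensor Aim2 was 24.3 FPKM in d/d and 4.78 in f/f, the endosomal RNA sensor Tlr3 was 21.5 in d/d and 9.90 in f/f, its fellow Tlr7 was 13.5 in d/d and 6.18 in f/f, and the Tlr3 adaptor Ticam1 was 18.4 in d/d and 7.92 in f/f. The adaptor Mavs, on which Ddx58 and Ifih1 signal, was 30.7 FPKM in d/d and 15.5 in f/f, just short of the line. Most epithelial markers and some macrophage and monocyte markers were higher in the same library, as given above, and their part was not tested.

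The guanylate-binding proteins (Gbp), large GTPases that attack the vacuoles of intracellular microbes and are induced above all by interferon gamma, divided by chromosome. The 4 measured genes of the chromosome 3 cluster were all lower in d/d by 2-fold or more, and the 5 measured genes of the chromosome 5 cluster all had ratios between 0.07 and 0.50. This division was noticed after the values were seen. On chromosome 3 (142493978 to 142638008, GRCm38), Gbp3 (ENSMUSG00000028268) was 23.3 FPKM in d/d and 66.6 FPKM in f/f, a 2.86-fold lower level. Gbp5 was 2.28 FPKM in d/d and 6.30 in f/f, 2.77-fold lower. Gbp7 was 6.45 FPKM in d/d and 17.5 in f/f, 2.72-fold lower. Gbp2 was 13.3 FPKM in d/d and 29.5 in f/f, 2.22-fold lower. The fifth gene of that cluster, Gbp2b, was 0.0681 FPKM in d/d and listed at 0 in f/f.

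On chromosome 5 (105014150 to 105346472) no Gbp gene passed the line. Gbp4 was 14.5 FPKM in d/d and 9.99 in f/f, Gbp6 was 13.5 in d/d and 12.9 in f/f, and Gbp9 was 12.3 in d/d and 10.8 in f/f. Gbp8 and Gbp10 were below 3 FPKM in both libraries, with log2 ratios of 0.48 and 0.39, and Gbp11 stayed below 1 FPKM in both. The summed level of the chromosome 3 genes was 45.4 FPKM in d/d and 120 FPKM in f/f, and that of the chromosome 5 genes was 45.5 in d/d and 36.6 in f/f. The ratio of Gbp6 (0.07) was -0.01 when libraries were scaled to their upper quartile, so its sign carries nothing. Gbp genes within a cluster are near copies, and Gbp4, Gbp8 and Gbp9 overlap in the annotation, so the authors' estimate could share fragments among them. Gbp6 and Gbp10 overlap Gm43302 on the same strand, listed at 2.14 FPKM in d/d and 1.92 in f/f. Gbp7 overlaps the processed pseudogene Gm43802, listed at 0.0631 FPKM in d/d and 8.52 in f/f. Natural killer cell markers were lower in the same library, as given above. So were stromal markers, summing to 2982 FPKM in d/d and 4699 in f/f, and endothelial markers, summing to 205 in d/d and 413 in f/f, with none at 0. Their part in the Gbp values was not tested.

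The promoters of the 4 lower Gbp genes were set beside those of 2 genes that were not lower, to show where each holds the letters of the ISRE. The motif searched was GAAA, any 2 bases and GAAA again, on either strand, in windows from 250 bases before to 50 after each RefSeq start (GRCm38.p6), where overlapping matches were allowed. Of the 113 genes 89 had a window, and 46 of their 101 windows (45.5%) held the motif, beside 3.44% of all 32851 windows. The 200 bases before the start are printed 5′ to 3′ along the gene, with matches in capitals. They come from chr3:142620463-142620662 for Gbp2, chr3:142559844-142560043 for Gbp3, chr3:142496734-142496933 for Gbp5 and chr3:142530136-142530335 for Gbp7, all on the plus strand. The windows of Irgm1 and Isg15 are chr11:48871421-48871620 and chr4:156200819-156201018, on the minus strand.
Gbp2: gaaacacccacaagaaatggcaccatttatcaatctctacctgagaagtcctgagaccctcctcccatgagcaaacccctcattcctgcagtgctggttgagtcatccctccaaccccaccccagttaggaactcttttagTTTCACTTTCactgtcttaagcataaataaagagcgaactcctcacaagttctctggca
Gbp3: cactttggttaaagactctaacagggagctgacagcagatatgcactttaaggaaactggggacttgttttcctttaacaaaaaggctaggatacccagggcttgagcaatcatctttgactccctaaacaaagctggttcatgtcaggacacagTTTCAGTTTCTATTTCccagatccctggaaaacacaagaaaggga
Gbp5: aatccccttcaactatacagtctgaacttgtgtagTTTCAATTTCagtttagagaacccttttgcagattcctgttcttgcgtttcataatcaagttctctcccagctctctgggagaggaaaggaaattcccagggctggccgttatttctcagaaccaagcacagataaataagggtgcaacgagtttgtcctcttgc
Gbp7: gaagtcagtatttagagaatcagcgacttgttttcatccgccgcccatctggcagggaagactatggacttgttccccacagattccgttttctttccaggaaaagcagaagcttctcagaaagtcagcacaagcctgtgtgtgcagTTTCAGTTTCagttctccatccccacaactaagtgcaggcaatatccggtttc
Irgm1: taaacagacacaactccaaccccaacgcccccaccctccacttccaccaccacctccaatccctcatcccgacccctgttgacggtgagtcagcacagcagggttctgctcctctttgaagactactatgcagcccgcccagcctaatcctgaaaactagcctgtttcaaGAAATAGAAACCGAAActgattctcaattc
Isg15: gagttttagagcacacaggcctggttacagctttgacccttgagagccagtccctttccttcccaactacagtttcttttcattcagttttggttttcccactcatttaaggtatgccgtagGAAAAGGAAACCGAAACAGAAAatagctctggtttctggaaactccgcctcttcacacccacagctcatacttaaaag

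In these sequences the motif lay close to the start in Gbp2, Gbp3 and Gbp7, beginning 59, 45 and 53 bases before it, and farther off in Gbp5, at 165. In Irgm1, which was higher in d/d, it began 30 bases before the start, and in Isg15, whose level barely differed, 78 bases before. Both of the last 2 hold overlapping copies, as does Gbp3. The motif was present in 5 of the 6 lower genes with a window, in 2 of the 6 higher ones and in 24 of the 49 measured genes within 2-fold, and 4 of the 5 are the neighbouring Gbp genes. Genes without a window included Mx1 and Rtp4 of the higher ones, Iigp1 of the lower ones and the Gbp genes of chromosome 5. The promoters of the 2 Gbp clusters therefore could not be compared. For the GAS letters, TTCNNNGAA, matches stood in 27.7% of the members' windows and 8.3% of all windows. Gbp5 and Gbp7 held them and Gbp2 and Gbp3 did not. A match is a string of letters and does not show binding.

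The immunity-related GTPases, smaller enzymes that act on the same vacuoles, went both ways. Irgm1 (ENSMUSG00000046879, chromosome 11), which regulates the other members of its family and autophagy, was 122 FPKM in d/d and 49.8 FPKM in f/f, a 2.45-fold higher level. Iigp1 on chromosome 18, an effector that Irgm1 holds in check, was 17.0 FPKM in d/d and 35.7 FPKM in f/f, 2.10-fold lower and the lower gene nearest to the 2-fold line. Igtp was 24.0 FPKM in d/d and 27.9 in f/f, and Irgm2 was 21.8 in d/d and 23.8 in f/f. Ifi47 was 51.2 in d/d and 28.3 in f/f, a log2 ratio of 0.83. Igtp and Irgm2 overlap on the same strand.

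**Figure D3:**
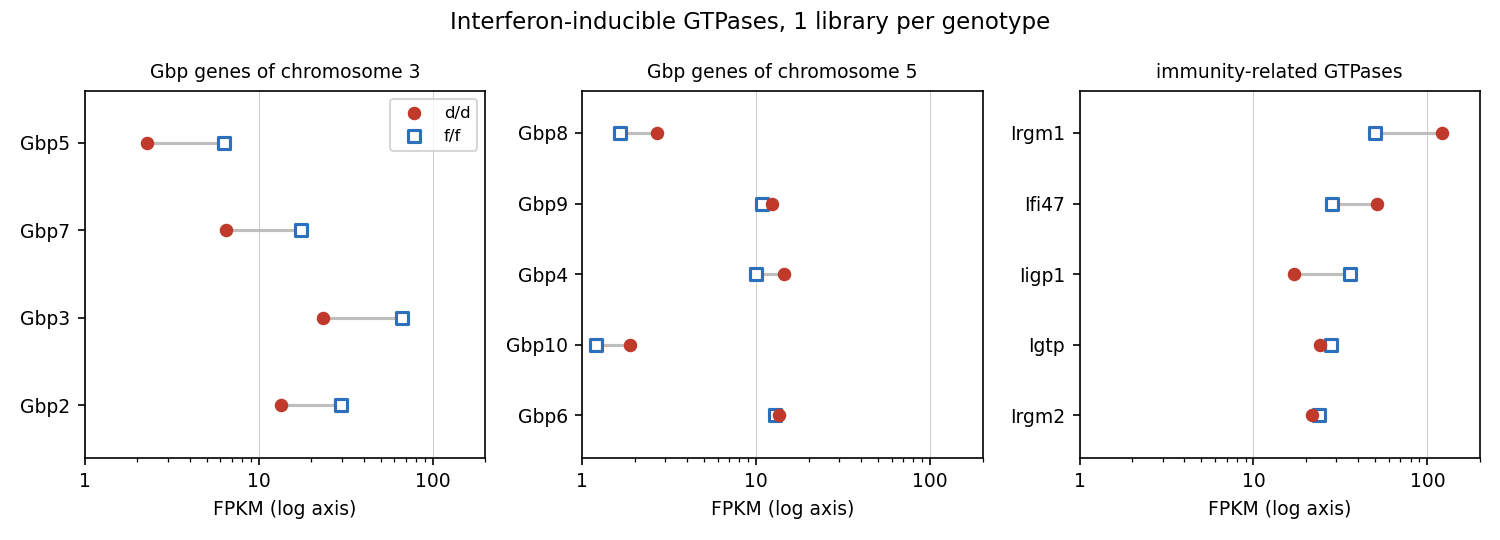
Rows give the FPKM of each measured Gbp gene, ordered by position on its chromosome, and of the immunity-related GTPases, in the d/d library (red circles) and the f/f library (open blue squares), all on 1 log axis. The 4 genes of chromosome 3 lie left of their f/f values, from 2.28 FPKM in d/d and 6.30 in f/f for Gbp5 to 23.3 in d/d and 66.6 in f/f for Gbp3, while those of chromosome 5 lie at or right of them.

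Mx1 and Mx2, GTPases that block viral replication, had ratios of opposite sign. Mx1 was 13.9 FPKM in d/d and 5.55 in f/f, 2.50-fold higher, and Mx2, within the line, was 3.24 in d/d and 6.56 in f/f. Most inbred laboratory mouse strains carry defective copies of both genes, and the annotation classes Mx2 as a polymorphic pseudogene.

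The oligoadenylate synthetases, which on binding viral RNA make the activator of the ribonuclease RNase L, had 1 higher gene. Oasl1 was 39.0 FPKM in d/d and 6.62 FPKM in f/f, a 5.90-fold higher level, and this was the largest fold among measured members above 0 in both libraries. In mice this protein restrains the translation of Irf7 mRNA and lacks synthetase activity. Over the longest of the 6 annotated transcripts of Oasl1 (567 to 2181 nt) its values stand for about 1763 fragments in d/d and 257 in f/f. Over a shorter one they stand for fewer. An antisense gene that overlaps it, Gm13822, was 1.51 FPKM in d/d and listed at 0 in f/f. Its neighbour Oasl2 was 71.7 FPKM in d/d and 64.9 in f/f. Oas2 was the nearest gene below the upper 2-fold line, at 23.2 FPKM in d/d and 12.1 in f/f, a log2 ratio of 0.89. Oas3 was 5.06 FPKM in d/d and 2.46 in f/f, and Oas1a was 35.2 in d/d and 32.0 in f/f. Its near copy Oas1g was 13.0 in d/d and 8.41 in f/f. Oas1b, a polymorphic pseudogene in the annotation, was 3.48 in d/d and 6.26 in f/f, and Oas1c was 1.27 in d/d and 1.51 in f/f. The other 4 Oas genes (Oas1d, Oas1e, Oas1f and Oas1h) were below 1 FPKM in both.

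The Ifit proteins, which bind foreign RNA ends, had ratios below 0 in 4 of 5 measured genes, none of which passed the line. Ifit3 was 23.8 FPKM in d/d and 38.4 in f/f, Ifit1 was 20.5 in d/d and 25.0 in f/f, and Ifit2 was 7.58 in d/d and 12.0 in f/f. Ifit3b was 5.90 in d/d and 12.6 in f/f, the nearest gene outside the lower 2-fold line at a log2 ratio of -0.98, and it is a near copy of Ifit3. In the same cluster on chromosome 19, Ifit1bl1 went against these at 8.48 FPKM in d/d and 2.67 FPKM in f/f, 3.18-fold higher. Ifit1bl2 stayed below 1 FPKM.

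The Ifitm membrane proteins hinder virus entry, and Ifitm3 and Ifitm2 had the highest FPKM of all members in both libraries. Ifitm3 was 1501 FPKM in d/d and 1470 in f/f, Ifitm2 was 841 in d/d and 1138 in f/f, and Ifitm1 was 357 in d/d and 402 in f/f. The ratio of Ifitm3 (0.03) changed sign with the scaling of the libraries. Ifitm6, which lies beside them on chromosome 7 (141015699 to 141017924), was 9.12 FPKM in d/d and 45.9 FPKM in f/f, a 5.03-fold lower level and the lowest log2 ratio of all measured members, at -2.21. Ifitm10 was 1.10 FPKM in d/d and 2.84 in f/f, and Ifitm5 and Ifitm7 stayed below 1 FPKM.

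The PYHIN genes that the symbol patterns matched, among them DNA sensors, occupy 1 cluster on chromosome 1 (173468485 to 174031810). Aim2, a PYHIN gene outside the patterns and described with the sensors, was 24.3 FPKM in d/d and 4.78 in f/f and is not counted here. Ifi205 at its far end was 13.3 FPKM in d/d and 43.3 FPKM in f/f, 3.26-fold lower, and the other 8 measured genes had log2 ratios from -0.59 for Ifi211, at 18.8 FPKM in d/d and 28.8 in f/f, to 0.38 for Ifi208. Ifi203, the most abundant of these in d/d, was 32.1 FPKM in d/d and 37.0 in f/f, and Ifi204 was 14.8 in d/d and 20.3 in f/f. Near-copy genes and the overlap of Ifi203 and Ifi211 with Mndal make single values of this cluster uncertain. Mndal, on the same strand as both, was 23.6 FPKM in d/d and 47.9 in f/f. Ifi202b and Ifi214 stayed below 1 FPKM.

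Isg15, a ubiquitin-like protein that type I interferon induces strongly, was 209 FPKM in d/d and 198 FPKM in f/f. Its log2 ratio of 0.08 was -0.0032 with upper-quartile scaling. Usp18, the protease that removes Isg15 and damps the type I receptor, was 15.7 FPKM in d/d and 20.2 in f/f. Rsad2 (viperin) was 4.41 in d/d and 7.52 in f/f. Ifi44, Xaf1 and Ifi35 also lay within the line, at log2 ratios of -0.08, -0.22 and -0.47.

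Among the remaining effectors Rtp4 alone of 10 measured passed the line, at 162 FPKM in d/d and 77.0 FPKM in f/f, 2.11-fold higher and the higher gene nearest to the line. Bst2 (tetherin), which holds budding virus at the cell surface, was 591 FPKM in d/d and 449 in f/f. Ifi27l2a was 314 FPKM in d/d and 551 in f/f, Ifi27 was 119 in d/d and 210 in f/f, and the exonuclease Isg20 was 23.5 in d/d and 41.4 in f/f. These 3 had log2 ratios between -0.82 and -0.79. Isg20l2, a ribosomal RNA processing exonuclease named for its likeness to Isg20, was 28.6 FPKM in d/d and 23.2 in f/f. Ifi27l2b and Ifi44l stayed below 1 FPKM.

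**Figure D4:**
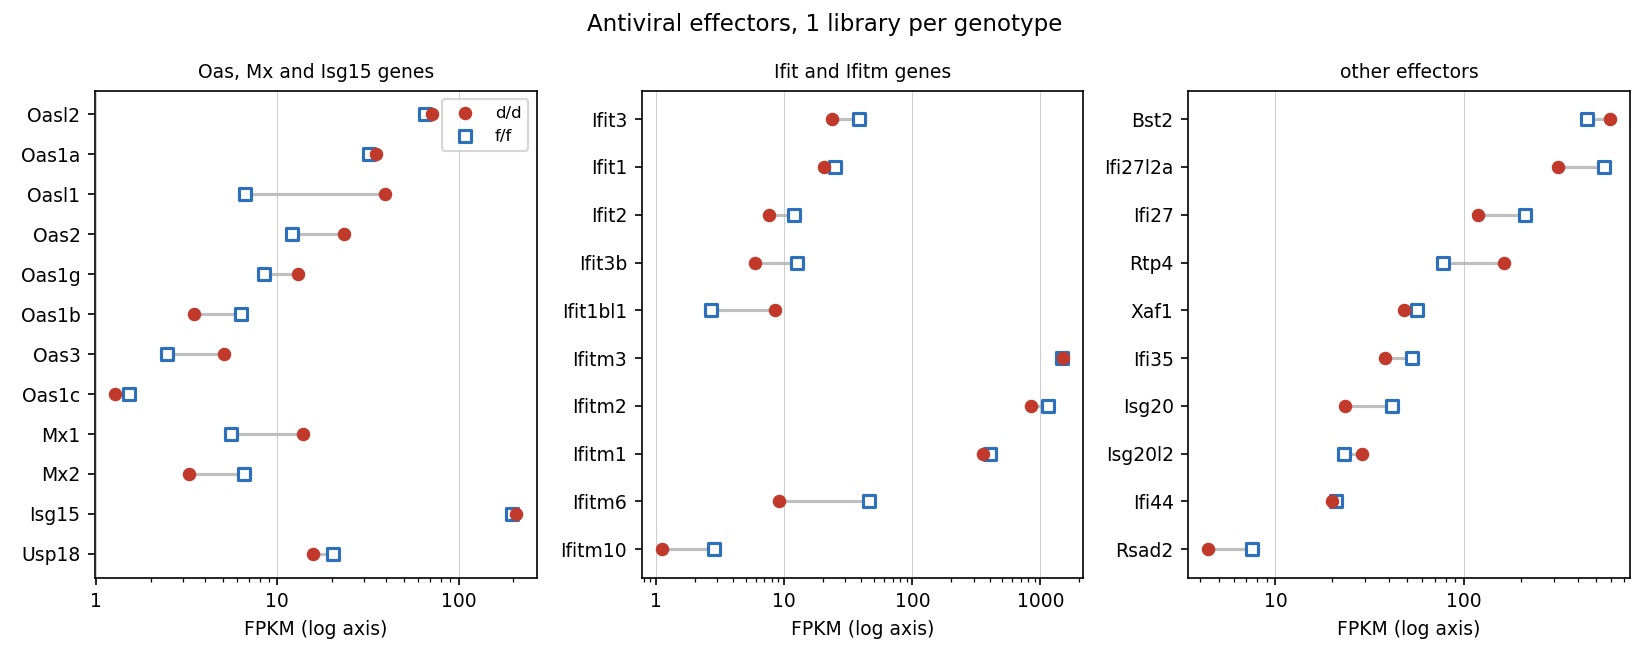
Rows give the FPKM of each measured gene of the antiviral families in the d/d library (red circles) and the f/f library (open blue squares) on log axes. Oasl1 (39.0 FPKM in d/d and 6.62 in f/f) and Ifitm6 (9.12 in d/d and 45.9 in f/f) have the widest gaps, and Isg15 and Ifitm3 nearly coincide.

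Other genes that interferons induce, listed from general knowledge, showed no common direction. In 51 measured genes there were 3 at least 2-fold higher and 2 lower (9.8%, beside 18.4% of all measured genes), with a median of -0.07. Higher were the chemokine Cxcl16, at 54.9 FPKM in d/d and 15.2 in f/f, the death ligand Tnfsf10 (TRAIL), at 41.0 in d/d and 13.0 in f/f, and Epsti1, at 28.7 in d/d and 9.50 in f/f. Lower were Cxcl10, a chemokine of the interferon gamma response, at 4.85 FPKM in d/d and 12.8 in f/f, and the complement inhibitor Serping1, at 137 in d/d and 279 in f/f. The antigen-processing genes Psmb8, Psmb9 and Tap1 had log2 ratios of -0.14, -0.36 and -0.31.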

How the data were processed

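The deposited files give 1 FPKM value per gene for each of the 2 libraries, as the authors computed it. HISAT2 2.2.1, Cufflinks 2.2.1 and mm10 are named in the submitters' processing notes. Per the labels' protocols TRIzol served for total RNA and a TruSeq RNA kit for the libraries. Strandedness, read length, annotation release and pooling are not stated in the labels, and no read counts were used. Without strand, reads of antisense partners cannot be told apart.

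Rows sharing a symbol were summed (55483 rows to 55363 genes). Log2 ratios of (FPKM + 1), d/d over f/f, were computed with pandas 2.3.3 in Python 3.11.15. The pseudocount understates the change of genes near 1 FPKM. With 1 library per genotype no test was run. Depth was estimated from genes whose only annotated transcript is 2000 nt or longer, where 66.6% of 939 low values in d/d and 69.2% of 921 in f/f lay within 0.1 of a whole fragment. It is approximate, and fragment numbers cover counting error only. Those of single genes were computed over the longest annotated transcript and would be lower over a shorter one. Positions are those of GENCODE M21 on GRCm38 (mm10), which held 55137 of the 55483 gene IDs and all 113 members.

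Members, gene lists and the naming rule were chosen with earlier results of these data known. Named are all members past 2-fold, all ligands, receptors, Irf and Stat genes, the 3 most abundant of each role, and pathway genes past 2-fold. Others were named after their values were seen, and some genes within the rule are counted but not reported singly here. The sensor list's Mb21d1 and Tmem173 matched under Cgas and Sting1. Computations were checked on simulated data.

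Marker lists not described with a result were these. Plasmacytoid dendritic cell genes, which include the members Bst2 and Irf8, had 2 higher and none lower of 6 measured. B and plasma cell genes had 3 higher and none lower of 5, and neutrophil genes 2 higher and none lower of 5. None of 14 reference genes passed the line, with a median log2 ratio of 0.04.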

Additional observations from a re-analysis of the deposited data

How the results depend on the processing

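The counts of higher and lower members were recomputed under 12 alternatives, 11 of them planned and 1, keeping pseudogene symbols, chosen after seeing the data. With a pseudocount of 5 FPKM, 5 members were higher and 3 lower (10%, beside 8.66% of all genes). In the other 11 alternatives 8 to 10 were higher and 7 to 10 lower. Dropping the filter or taking the highest row of each symbol could not change these counts, as no member shares its symbol between rows. The share past the line, members beside all genes, depended on the filter. With 1 FPKM required in both libraries it was 19.2% beside 13.7%. With 5 FPKM in at least 1 library it was 21.7% beside 17.1%. With no filter it was 14.2% beside 5.42%, which reflects only how many genes were measured. A gene below 1 FPKM in both libraries cannot pass the line with a pseudocount of 1. Measured were 80 of 113 members and 16263 of 55363 genes. A pseudocount of 0.1 FPKM gave 25% beside 24.3%. The pseudocount of 5 took Gbp2, Gbp5, Gbp7, Iigp1, Ifit1bl1, Ifne, Ifngr2 and Mx1 inside the line. A pseudocount of 0.1 carried Ifit3b, Ifitm10, Ifng and Oas3 past it. The sign of the median was not stable: it was -0.0783 with a minimum of 5 FPKM, -0.0328 with upper-quartile scaling and -0.0309 without the Irf2-binding proteins, beside 0.0428 as reported. Upper-quartile scaling also moved the median of all measured genes by -0.0756. The Irf2-binding proteins left out had log2 ratios of 0.39, 0.56 and 1.21. Why the minimum of 5 FPKM lowered the median was not tested. Upper-quartile scaling took Rtp4 inside the line and, like setting the reference genes to 0, carried Ifit3b past it. The ratios of Gbp6, Ifi209, Ifitm3 and Isg15 changed sign with scaling. The 480 recomputed gene ratios could not show a called gene changing sign. A pseudocount leaves the sign as it is, and the scalings shifted ratios by far less than 1. No paired analysis was possible because there is 1 library per genotype, and leaving a library out would leave no comparison. Depth limits genes near 1 FPKM, such as Ifng.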

Other observations

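The genes around the Gbp clusters were looked at after the cluster values had been seen. Within 500 kb of the chromosome 3 cluster 4 other protein-coding genes were measured, and none passed the 2-fold line. Pdlim5 on one side was 25.4 FPKM in d/d and 16.9 in f/f. On the other side Kyat3 was 8.36 FPKM in d/d and 14.3 in f/f, Gtf2b 38.3 in d/d and 34.0 in f/f, and Pkn2 24.0 in d/d and 23.0 in f/f. In and around the chromosome 5 cluster 6 were measured, of which the volume-regulated channel subunit Lrrc8d was higher, at 29.7 FPKM in d/d and 11.7 in f/f. The others had log2 ratios from -0.48 to 0.46. Among them Gm43302 lies inside the cluster and overlaps Gbp6 and Gbp10 on the same strand, so it is no flanking gene.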
